A study of Homo sapiens with 12 samples.

Results

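IFRD1 and IFRD2 are paralogous human genes, and every splicing event listed under either symbol was taken from the tables of retained introns (RI) and skipped exons (SE). This gave 87 listings among 245573 in all, 38 in IFRD1 and 49 in IFRD2. Of these, 35 held enough reads of both forms to be tested, 10 in IFRD1 and 25 in IFRD2, which took a mean of at least 10 reads a library and at least 10 reads of each form. The other 52 did not reach this.

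The tables came from polyA RNA-seq of HEK293A-TOA cells, a line derived from human embryonic kidney cells. There were 4 groups of 3 biological replicates: SFSWAP knockdown (siSFSWAP), non-target siRNA (siNT), SFSWAP and UPF1 double knockdown (siSFSWAP/siUPF1), and non-target siRNA with UPF1 knockdown (siNT/siUPF1). All 12 samples were harvested after 5 days of knockdown and were given 1 µM TG for 6 hr, so no group lacked TG, an inhibitor of the enzyme that removes O-GlcNAc from proteins. SFSWAP was targeted with a mixture of 2 siRNAs, and all samples came from the same cell line. The tables list the 3 libraries of a group without their replicate numbers, so libraries are given here by their place in the list. The siSFSWAP and siNT groups shared 1 pair of tables (here the TG tables), and the siSFSWAP/siUPF1 and siNT/siUPF1 groups shared the other (the UPF1 tables).

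IFRD2 is known as a protein that sits on ribosomes that are not translating, as seen in rabbit reticulocytes. IFRD1, also called Tis7, is an immediate early gene product that recruits SIN3 and histone deacetylases in mouse cells, and the human IFRD1 mRNA carries an upstream reading frame that makes it a target of UPF1. SFSWAP is an SR-like splicing regulator that in flies controls the splicing of its own introns. UPF1 is the helicase of nonsense-mediated decay, which removes mRNAs whose reading frame stops early, as often happens when an intron stays in a transcript or a skipped exon shifts the frame.

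IFRD2 lies on the minus strand of chromosome 3 (chr3:50287732-50292429 in GRCh38, MANE transcript in GENCODE) and IFRD1 on the plus strand of chromosome 7 (chr7:112450460-112477203). Both transcripts have 12 exons, and 6 of these (exons 3, 4, 5, 6, 10 and 11) have the same length in the paralogs. The introns do not match: 9 of 11 IFRD2 introns are shorter than 200 nt (median 88 nt), against 3 of 11 in IFRD1 (median 1822 nt). The RI tables held introns 2, 3, 4 and 10 of IFRD2 and introns 6 and 7 of IFRD1 with enough reads to be tested. These 6 introns are all between 78 and 93 nt long. Their sequences are shown because the retained introns differ between the paralogs in base composition and in the stop codons they would add. Each runs 5′ to 3′ on the strand of the gene (GRCh38), with the first 2 bases, the last 2 bases and the first stop codon in frame with the upstream exons in capitals.
IFRD2 intron 2: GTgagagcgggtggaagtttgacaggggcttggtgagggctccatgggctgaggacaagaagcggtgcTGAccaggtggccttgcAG
IFRD2 intron 3: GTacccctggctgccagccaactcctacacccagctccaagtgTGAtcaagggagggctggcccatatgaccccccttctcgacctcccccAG
IFRD2 intron 4: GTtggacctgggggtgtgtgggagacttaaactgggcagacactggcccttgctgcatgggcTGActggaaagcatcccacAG
IFRD2 intron 10: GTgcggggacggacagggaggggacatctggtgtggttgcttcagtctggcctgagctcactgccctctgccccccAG
IFRD1 intron 6: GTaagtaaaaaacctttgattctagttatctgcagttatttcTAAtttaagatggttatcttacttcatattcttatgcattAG
IFRD1 intron 7: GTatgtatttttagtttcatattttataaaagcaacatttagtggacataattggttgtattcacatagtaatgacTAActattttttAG

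All 6 begin with GT and end with AG. The IFRD2 introns are rich in G and C, with 62.1% in intron 2 (chr3:50290473-50290559), 63.4% in intron 3 (chr3:50290295-50290387), 59.0% in intron 4 (chr3:50290087-50290169) and 66.7% in intron 10 (chr3:50288505-50288582). The IFRD1 introns are poor in them, with 26.2% in intron 6 (chr7:112461917-112462000) and 23.3% in intron 7 (chr7:112462180-112462269). The last 30 bases held 22 pyrimidines in IFRD2 intron 3 and 20 in intron 10, against 12 in intron 2 and 13 in intron 4. Retention of IFRD2 intron 2, 3 or 4 would bring a TGA into frame, at base 69, 44 and 63 of the intron, and a TAA at base 43 of IFRD1 intron 6 and base 77 of intron 7. IFRD2 intron 10 is the exception: it is a multiple of 3 nt long and has no in-frame stop, and it is 1 of 11 IFRD2 introns of which this is true. None of the 4 IFRD2 introns lies under another annotated gene, since the neighbours LSMEM2 and HYAL3 overlap the IFRD2 gene at its ends. IFRD2 intron 3 is listed with different flanking exons in the TG and the UPF1 tables, but the intron itself is the same.

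**Figure D1:**
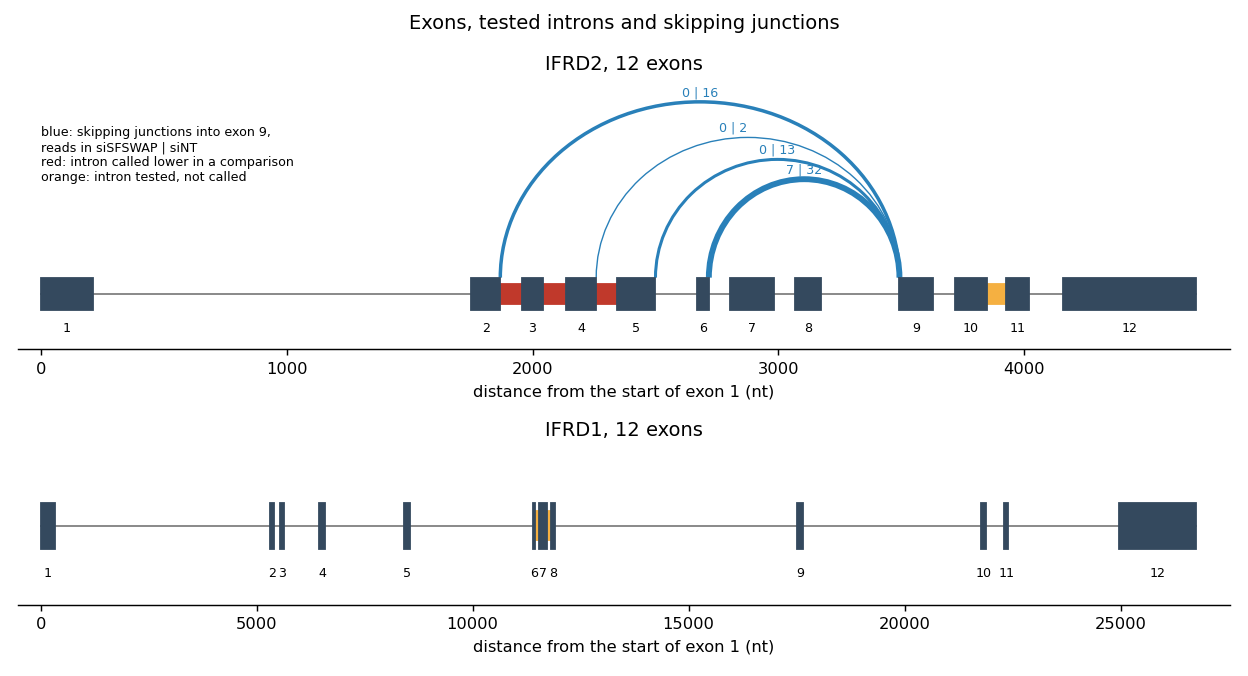
Exon maps of IFRD2 (top) and IFRD1 (bottom), with distance from the start of exon 1 in nt on the horizontal axis and exon numbers under the dark boxes. Red introns (IFRD2 introns 2, 3 and 4) were called lower in siSFSWAP or siSFSWAP/siUPF1 cells, orange introns were tested and not called, and blue arcs are junctions that join exon 9 to exon 2, 4, 5 or 6, labelled with their summed reads in siSFSWAP | siNT.

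Reads at SE events ran between 25938092 and 40637076 a library, and reads at RI events between 1812794 and 3030493. Levels are given as RPM, the reads at a gene's SE events scaled to 1000000 reads at all SE events of the library. SFSWAP averaged 47.1 ± 11.1 RPM in siSFSWAP and 121 ± 6.65 in siNT (SD, n = 3 each). They were 29.1 ± 9.99 in siSFSWAP/siUPF1 and 72.4 ± 7.57 in siNT/siUPF1 (SD, n = 3 each), so the groups did not overlap in either table. UPF1 reads, at events listed in both tables, were 0.343 times as high in siSFSWAP/siUPF1 as in siSFSWAP and 0.296 times as high in siNT/siUPF1 as in siNT. Of the markers listed for this line, VIM had between 9903 and 16534 reads in every library and KRT8 between 1541 and 4564. KRT18 had 1 listed event, with between 0 and 438 reads a library. No event was listed for NEFL, NEFM, NES or the 6 markers of other cell types, so those could not be read from these tables.

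The first comparison asked whether SFSWAP knockdown changes how much of each intron stays in the mRNA. It did for IFRD2: introns 2, 3 and 4, which lie side by side, all fell in siSFSWAP cells. The libraries of the 2 groups did not overlap in any of them. With 3 against 3 libraries such separation has an exact two-sided permutation p of 0.1. The share of all RI events without overlap is not given here, so the separation is not weighed against it. The inclusion level is the share of transcripts that keep the intron, computed from reads of each form divided by the length each form offers.

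IFRD2 intron 2 was at 0.0583, 0.155 and 0.0953 in the siSFSWAP libraries, against 0.437, 0.347 and 0.620 in the siNT libraries. The highest siSFSWAP library was thus below the lowest siNT library. The mean was 0.103 ± 0.0487 in siSFSWAP and 0.468 ± 0.139 in siNT (SD, n = 3 each). The log2 odds ratio of retained to spliced reads was -2.99 (SE 0.41, adjusted p = 3.07e-06, quasi-binomial F test with Benjamini-Hochberg adjustment over all RI events tested). IFRD2 intron 3, between exons 3 and 4, was at 0.146, 0.116 and 0.229 in siSFSWAP, against 0.557, 0.382 and 0.712 in siNT. It was the most retained of the 3 in siNT, with means of 0.163 ± 0.0585 in siSFSWAP and 0.550 ± 0.166 in siNT (SD, n = 3 each). Its log2 odds ratio was -2.68 (SE 0.38, adjusted p = 9.15e-06). IFRD2 intron 4 was at 0.133, 0.140 and 0.127 in siSFSWAP, against 0.402, 0.236 and 0.514 in siNT. Here the siSFSWAP libraries stood close together and the siNT libraries were spread. The log2 odds ratio was -1.83 (SE 0.43, adjusted p = 0.00401).

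In each of these IFRD2 introns the third siNT library of the list was the highest and the second the lowest. All 3 calls held with any 1 library left out, with adjusted p of at most 0.0380. All 3 were lost when dispersion was taken from each event alone (adjusted p = 0.319), when low-count events were kept (adjusted p between 0.0982 and 0.143), and in limma on log2 odds (adjusted p between 0.0654 and 0.126). These settings called 0 of the RI events, with between 829 and 1560 at an unadjusted p under 0.05.

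Over all RI events tested, 9.10% were called lower in siSFSWAP and 1.33% higher, with a median log2 odds ratio of -0.25. In IFRD2, 3 of 3 tested introns were called lower. By p, IFRD2 intron 2 stood at place 15, intron 3 at 31 and intron 4 at 241 among 5845 events. Counted from the lowest log2 odds ratio, they stood at places 126, 200 and 579. Among the 1903 tested introns of at most 100 nt, the size of all of these, 9.51% were called lower, and among the 3942 longer ones 8.90%.

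No IFRD1 intron was called. IFRD1 intron 6 was at 0.0493, 0 and 0.0642 in siSFSWAP, against 0.0282, 0.0656 and 0.0467 in siNT, with a log2 odds ratio of -0.21 (95% interval -1.50 to 1.08, adjusted p = 0.899). IFRD1 intron 7 was at 0.173, 0.149 and 0.169 in siSFSWAP, against 0.0791, 0.102 and 0.230 in siNT, with a log2 odds ratio of 0.19 (95% interval -0.97 to 1.36, adjusted p = 0.916). The groups overlapped in both introns. Both intervals lie above the estimates of IFRD2 introns 2, 3 and 4, which ran between -2.99 and -1.83 and carry errors of their own. IFRD2 intron 4 ran between -2.34 and -1.56 with 1 library left out. IFRD1 intron 6 went down to -0.92 under other settings, so the gap to intron 4 is not secure. The difference between the paralogs was not itself tested.

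**Figure D2:**
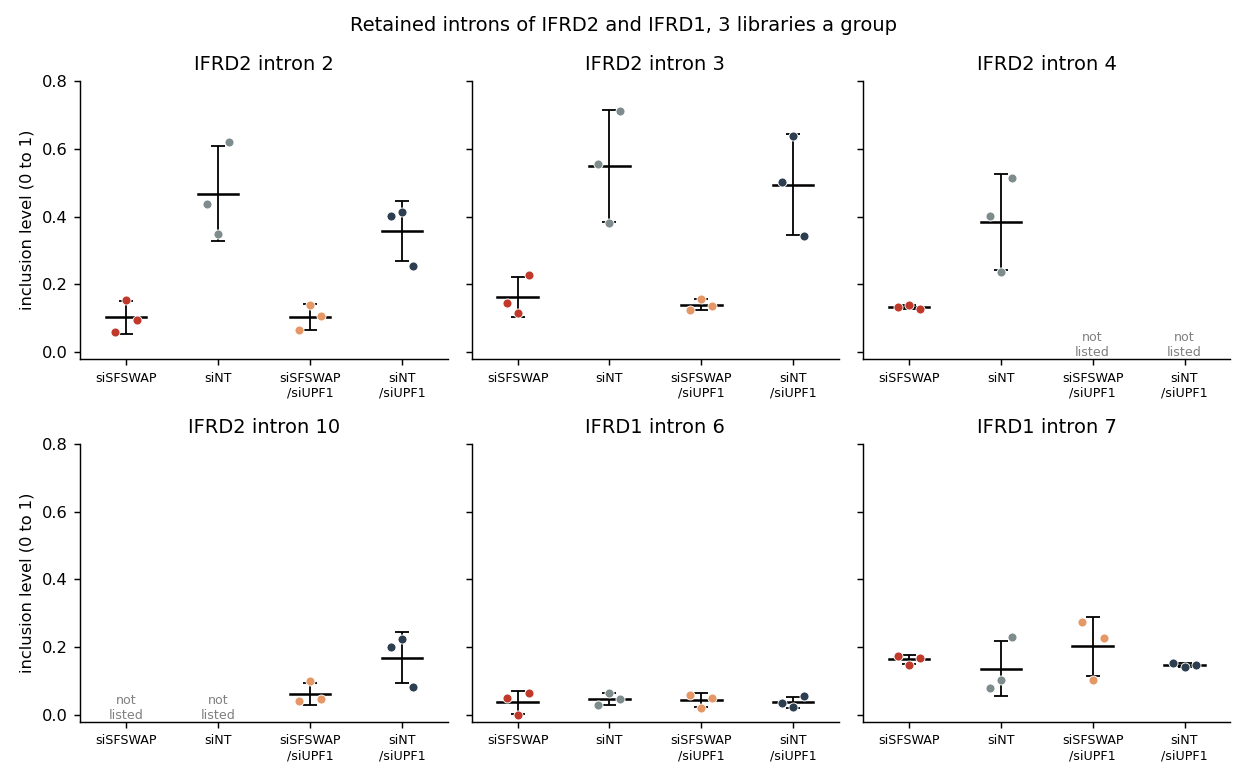
Inclusion level (0 to 1) of each tested intron of IFRD2 and IFRD1 in the 4 groups. Points are the 3 libraries of a group, bars the mean and SD; IFRD2 introns 2, 3 and 4 sit between 0.0583 and 0.229 in the siSFSWAP libraries and between 0.236 and 0.712 in the siNT libraries, while the IFRD1 groups overlap.

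The second comparison put the same question in cells with UPF1 knocked down as well, where transcripts with early stops are less readily removed. IFRD2 introns 2 and 3 fell again. IFRD2 intron 2 was at 0.0643, 0.140 and 0.106 in siSFSWAP/siUPF1, against 0.403, 0.413 and 0.255 in siNT/siUPF1. The groups did not overlap, and the log2 odds ratio was -2.18 (SE 0.41, adjusted p = 0.00113). IFRD2 intron 3 was at 0.126, 0.158 and 0.136 in siSFSWAP/siUPF1, against 0.504, 0.638 and 0.342 in siNT/siUPF1. The siSFSWAP/siUPF1 libraries stood close together, all below the lowest siNT/siUPF1 library, and the log2 odds ratio was -2.54 (SE 0.41, adjusted p = 0.000268). Both calls held with any 1 library left out, with adjusted p of at most 0.0254, and both were lost under the same settings as in the first comparison (adjusted p between 0.206 and 0.562).

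IFRD2 intron 10, near the 3′ end of the gene, was tested only in the UPF1 tables. It was at 0.0425, 0.101 and 0.0459 in siSFSWAP/siUPF1, against 0.201, 0.224 and 0.0827 in siNT/siUPF1. The third siNT/siUPF1 library fell within the range of the other group. Its log2 odds ratio of -1.62 (SE 0.57) did not pass (adjusted p = 0.0995), except without that library (-2.04, adjusted p = 0.00534; adjusted p between 0.00534 and 0.396 over the libraries left out). IFRD2 intron 4 was not listed in the UPF1 table.

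In this background 2.59% of the 5105 RI events tested were called lower and 0.979% higher, with a median log2 odds ratio of -0.06. In IFRD2, 2 of 3 tested introns were called lower. IFRD1 intron 6 averaged 0.0433 ± 0.021 in siSFSWAP/siUPF1 and 0.0375 ± 0.0166 in siNT/siUPF1 (SD, n = 3 each), a log2 odds ratio of 0.20 (95% interval -0.91 to 1.32, adjusted p = 0.924). IFRD1 intron 7 was at 0.275, 0.104 and 0.227 in siSFSWAP/siUPF1, against 0.155, 0.141 and 0.147 in siNT/siUPF1. The siNT/siUPF1 libraries lay within the spread of the others, and the log2 odds ratio was 0.53 (95% interval -0.41 to 1.46, adjusted p = 0.711).

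Intron reads and spliced reads were also read apart. IFRD2 intron 2 had 0.515, 0.866 and 0.467 RPM of intron reads in siSFSWAP, against 4.88, 2.55 and 3.47 in siNT, which is 5.90-fold lower in the means. Its spliced junction reads were 4.43, 2.52 and 2.36 RPM in siSFSWAP, against 3.35, 2.55 and 1.13 in siNT, and overlapped (exact permutation test, two-sided, p = 0.6). Intron 3 had 4.53-fold lower RPM of intron reads in siSFSWAP than in siNT, and 1.42 times as many spliced reads. Intron 4 had 1.96-fold fewer intron reads and 1.83 times as many spliced reads, near-equal shifts in opposite directions. The intron reads did not overlap between groups in any of these 3 introns (exact permutation test, two-sided, p = 0.1 each, the smallest that 3 against 3 libraries allow), while the spliced reads did. Lower intron reads were not particular to IFRD2. IFRD1 intron 6 had 3.19-fold lower intron reads in siSFSWAP than in siNT and 2.71-fold lower spliced reads, both without overlap. For IFRD1 intron 7 intron reads were 1.73-fold lower with overlap, and spliced reads 2.06-fold lower without overlap.

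With UPF1 knocked down as well, intron reads were 3.46-fold lower for intron 2, 4.41-fold lower for intron 3 and 3.10-fold lower for intron 10 in siSFSWAP/siUPF1. Spliced reads of intron 10 were 2.45 ± 0.394 in siSFSWAP/siUPF1 and 2.40 ± 0.458 in siNT/siUPF1 (SD, n = 3 each). In IFRD1, intron reads were 1.87-fold lower for intron 6 and 1.73-fold lower for intron 7 in siSFSWAP/siUPF1, both with overlap. Spliced reads there were 2.18-fold and 2.56-fold lower, without overlap.

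**Figure D3:**
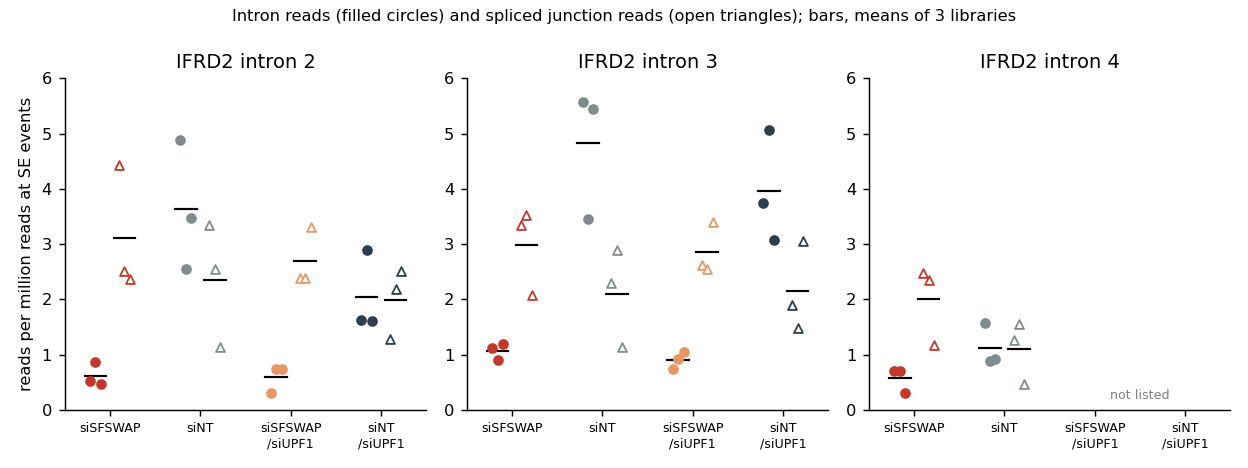
Intron reads (filled circles) and spliced junction reads (open triangles) of IFRD2 introns 2, 3 and 4, in RPM (reads per 1000000 reads at SE events), for each library of the 4 groups, with bars at the means. Intron reads of intron 3 lie between 0.733 and 1.19 in the SFSWAP knockdown libraries and between 3.08 and 5.58 in the others, while the triangles of the groups overlap.

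The third question was whether UPF1 knockdown by itself changes the introns. No IFRD2 or IFRD1 intron was called. These comparisons set libraries of 1 table against libraries of another, over events listed in both. IFRD2 intron 2 averaged 0.357 ± 0.0885 in siNT/siUPF1 and 0.468 ± 0.139 in siNT (SD, n = 3 each), a log2 odds ratio of -0.62 (95% interval -1.36 to 0.13, adjusted p = 0.627). It averaged 0.103 ± 0.0381 in siSFSWAP/siUPF1 and 0.103 ± 0.0487 in siSFSWAP (SD, n = 3 each), a log2 odds ratio of 0.19 (95% interval -0.68 to 1.06, adjusted p = 0.997). IFRD2 intron 3, matched by the intron alone since its flanks differ, had log2 odds ratios of -0.32 (95% interval -1.19 to 0.55) for siNT/siUPF1 against siNT and -0.18 (95% interval -0.87 to 0.51) for siSFSWAP/siUPF1 against siSFSWAP. All 4 intervals include 0. Over all RI events, 0.0659% were called for siNT/siUPF1 against siNT and 0.166% for siSFSWAP/siUPF1 against siSFSWAP.

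The difference of the siSFSWAP effect between the UPF1 backgrounds was 0.81 on the log2 scale for IFRD2 intron 2 (siUPF1 background minus the other, SE 0.66, adjusted p = 0.950) and 0.14 for intron 3 (SE 0.67, adjusted p = 0.992). Neither was called, as for all but 0.0291% of RI events. For intron 2 the interval runs between -0.48 and 2.10, so a weaker fall after UPF1 knockdown is not excluded at this depth.

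Downstream of the retained introns, IFRD2 had another kind of event, reads that join exon 9 directly to exon 6, 5, 4 or 2 and leave out exons 7 and 8 with or without the exons before them. Each such junction is shared by several listed SE events, so each junction is counted 1 time here. The junction of exon 6 to exon 9 had 0, 6 and 1 reads in siSFSWAP, against 13, 9 and 10 in siNT. The groups did not overlap. It leaves out 288 nt, or 96 codons, and keeps the frame. The junction of exon 5 to exon 9 leaves out 339 nt and also keeps the frame, and had 0, 0 and 0 reads in siSFSWAP, against 9, 4 and 0 in siNT. The junction of exon 2 to exon 9 leaves out 707 nt and shifts the frame. It had no read in siSFSWAP, against 12, 0 and 4 reads in siNT, so 1 library held most of them.

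After UPF1 knockdown the junction of exon 6 to exon 9 had 0, 2 and 0 reads in siSFSWAP/siUPF1, against 12, 15 and 2 in siNT/siUPF1. The junction of exon 5 to exon 9 had none in siSFSWAP/siUPF1, against 7, 7 and 0 in siNT/siUPF1. Over the junctions of exon 9 to exon 6, 5, 4 or 2 there were 7 reads in siSFSWAP and 63 in siNT. The junction of exon 2 to exon 9 was not listed in the UPF1 table. Over the junctions of exon 9 to exon 6, 5 or 4 alone there were 2 reads in siSFSWAP/siUPF1 and 46 in siNT/siUPF1, so the sums of the tables are not like for like. A count of 0 in 1 library allows up to 3 reads. The junction of exon 7 to exon 9, which leaves out exon 8 alone, had another pattern, with 1, 0 and 2 reads in siSFSWAP, against none in siNT, and 4, 1 and 0 reads in siSFSWAP/siUPF1, against 2, 1 and 3 in siNT/siUPF1. The junctions to exon 6, 5, 4 and 2 were counted together after their values had been seen, so no test is given for the sum.

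**Figure D4:**
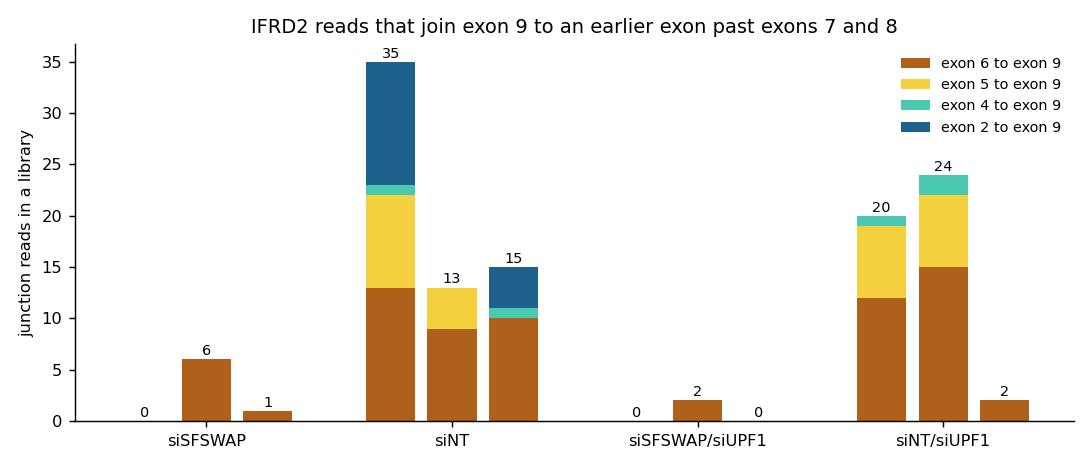
Reads of IFRD2 junctions that join exon 9 to exon 6, 5, 4 or 2, stacked by junction, in each of the 3 libraries of a group; numbers are the sums. The junction to exon 2 was not listed in the UPF1 table, so the sums of the siUPF1 groups leave it out. The siSFSWAP and siSFSWAP/siUPF1 libraries hold between 0 and 6 reads, the siNT libraries between 13 and 35, and the siNT/siUPF1 libraries 20, 24 and 2.

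By event, exon 7 of IFRD2 (chr3:50289447-50289628) was included at 1, 0.764 and 0.911 in siSFSWAP, against 0.645, 0.622 and 0.497 in siNT, without overlap. The log2 odds ratio of inclusion was 2.28 (SE 0.94) and missed the threshold (adjusted p = 0.0571, between 0.0454 and 0.301 under other settings). Exon 7 passed the filter only with the siNT reads of the exon 6 to exon 9 junction, 32 against 7 in siSFSWAP. In the UPF1 table exon 7 was at 1, 0.886 and 1 in siSFSWAP/siUPF1, against 0.392, 0.525 and 0.900 in siNT/siUPF1. There it was called (log2 odds ratio 3.63, 95% interval 0.47 to 6.79, adjusted p = 0.0397), with overlap through the third siNT/siUPF1 library, and 5 of the 6 fits that left out a library lost the call (adjusted p between 0.0638 and 0.241). So did 4 of 7 other settings (adjusted p up to 0.428, log2 odds ratio down to 2.67). A form of exon 8 that is 102 nt long (chr3:50289255-50289356), read against the same junction of exon 6 to exon 9, was at 1, 0.970 and 1 in siSFSWAP/siUPF1, against 0.689, 0.734 and 0.956 in siNT/siUPF1. It was called as well (log2 odds ratio 3.98, 95% interval 0.88 to 7.08, adjusted p = 0.0138), without overlap, and 4 of 6 such fits lost it, with adjusted p between 0.0724 and 0.1. Of 7 other settings 4 lost it too (adjusted p up to 0.398, log2 odds ratio down to 2.96). Both events reached the minimum of 10 skipping reads only through siNT/siUPF1, with 29 reads of that junction against 2 in siSFSWAP/siUPF1, so these calls are no support beyond the junction reads themselves. Against the exon 7 to exon 9 junction, the same 102-nt form, exon 8 and a form of 122 nt were not called (log2 odds ratios 0.65 and 0.66, adjusted p between 0.845 and 0.847).

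A further 2 events of the TG table were called higher in siSFSWAP, IFRD2 exon 4 (chr3:50290170-50290294, adjusted p = 0.0181) and a form of 283 nt that holds exon 4, intron 4 and part of exon 5 (adjusted p = 0.0224). Both are read against the junction of exon 2 to exon 9. They passed the filter only through the siNT reads of that junction, their groups overlap, and without the first siNT library they had too few reads to be tested. Their odds ratios rest on the 0.5 added to a count of 0 and are not given. When any 1 siSFSWAP library was left out, neither call held (adjusted p between 0.0689 and 0.112).

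Of all SE events, 7.76% were called higher in siSFSWAP than in siNT and 4.21% lower, and 4.05% were called higher in siSFSWAP/siUPF1 than in siNT/siUPF1 and 3.47% lower. The called IFRD2 SE events share 1 junction in each table and entered the test only through the group where that junction was read, so their number is not set against these shares. No change was called in exon 3, which lies between introns 2 and 3. It was included at 0.979 ± 0.0226 in siSFSWAP and 0.955 ± 0.0237 in siNT (SD, n = 3 each), and its 3 tested forms had adjusted p between 0.507 and 0.526. With UPF1 knocked down it was at 0.970 ± 0.0268 in siSFSWAP/siUPF1 and 0.968 ± 0.0278 in siNT/siUPF1 (SD, n = 3 each). Reads that join exon 2 to exon 4 numbered between 0 and 6 in every library.

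IFRD1 had 6 SE listings with enough reads, of 3 exons, and none was called in siSFSWAP against siNT or in siSFSWAP/siUPF1 against siNT/siUPF1. Exon 8 of IFRD1 (chr7:112462270-112462378) is 109 nt long, so its loss shifts the frame. The junction that leaves it out had 0, 4 and 6 reads in siSFSWAP, against 1, 0 and 3 in siNT. It had 3, 4 and 1 reads in siSFSWAP/siUPF1, against 5, 19 and 4 in siNT/siUPF1. The highest number, 19, is in 1 siNT/siUPF1 library. Exon 8 was included at 0.953 ± 0.0447 in siSFSWAP and 0.992 ± 0.00801 in siNT (SD, n = 3 each), a log2 odds ratio of -2.28 (95% interval -4.74 to 0.18, adjusted p = 0.214). Set across the tables, it was at 0.979, 0.923 and 0.974 in siNT/siUPF1, against 0.992, 1 and 0.984 in siNT. The groups did not overlap, but the log2 odds ratio of -2.08 (95% interval -4.48 to 0.32) did not pass (adjusted p = 0.430). The minimum of 10 skipping reads was met here only through siNT/siUPF1, with 28 reads against 4 in siNT. In siSFSWAP against siNT it was met only through siSFSWAP, with 10 reads against 4. The share of all SE events without overlap is not given here, so the separation is not weighed against it.

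The other 2 IFRD1 exons lie inside intron 9, share their last base and are rarely used. The form of 463 nt (chr7:112470571-112471033) was included at 0.0012, 0.0030 and 0.0051 in siSFSWAP, against 0.0003, 0.0003 and 0.0010 in siNT. All 3 siSFSWAP libraries were higher, on 17 inclusion reads in siSFSWAP and 8 in siNT, and it was not called (log2 odds ratio 2.21, SE 0.93, adjusted p = 0.0938). The form of 135 nt (chr7:112470899-112471033) was at 0.0114 ± 0.00747 in siSFSWAP and 0.00488 ± 0.00427 in siNT (SD, n = 3 each, adjusted p = 0.3).

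For SE events UPF1 knockdown by itself gave calls in 1.17% of events (siNT/siUPF1 against siNT) and 0.0816% (siSFSWAP/siUPF1 against siSFSWAP), and the siSFSWAP effect differed between the backgrounds in 0.00771%. No IFRD1 or IFRD2 event was among them. Exon 7 of IFRD2 was at 0.606 ± 0.263 in siNT/siUPF1 and 0.588 ± 0.0798 in siNT (SD, n = 3 each), a log2 odds ratio of -0.05 (95% interval -1.41 to 1.31).

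The level of the 2 genes was read from their reads at SE events, in RPM. In bulk RNA a lower level per cell and fewer cells that express a gene cannot be told apart. IFRD1 read levels did not overlap between siSFSWAP and siNT. The level was 72.6, 73.4 and 80.0 in siSFSWAP, against 162, 130 and 228 in siNT. The highest siSFSWAP library was well below the lowest siNT library, and the mean was 0.435 times as high in siSFSWAP. With UPF1 knocked down it was 77.2, 91.9 and 63.9 in siSFSWAP/siUPF1, against 227, 203 and 131 in siNT/siUPF1, or 0.416 times as high. Neither pair of groups overlapped (exact permutation test, two-sided, p = 0.1 each, the smallest possible). At a single junction, reads that join exon 9 to exon 10 of IFRD1 averaged 8.22 ± 0.57 RPM in siSFSWAP and 18.5 ± 5.48 in siNT (SD, n = 3 each), a ratio of 0.444 without overlap. A same-strand gene model, ENSG00000288640, overlaps IFRD1, and reads of the 2 could not be separated.

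The IFRD2 levels overlapped, at 74.0, 71.9 and 52.6 in siSFSWAP, against 76.2, 67.9 and 51.4 in siNT (ratio 1.02, exact permutation p = 0.9, two-sided). In the double knockdown it was at 31.5, 40.4 and 38.5 in siSFSWAP/siUPF1, against 26.03, 32.7 and 35.6 in siNT/siUPF1 (ratio 1.17, exact permutation p = 0.3, two-sided). This level depends on which reads are taken, and IFRD2 events that span introns were counted as well. Scaled to all RI reads instead, IFRD2 reads at RI events were 0.574 times as high in siSFSWAP as in siNT, and at the single SE event with the most reads 0.593 times as high, both without overlap.

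Across tables the levels are best set over the events listed in both, because 22 IFRD2 SE events were listed for TG and 16 for UPF1. On that base IFRD1 averaged 228 ± 62.4 in siNT/siUPF1 and 164 ± 49.6 in siNT (SD, n = 3 each), a ratio of 1.39 with overlap (exact permutation p = 0.2, two-sided). It averaged 95.7 ± 16 in siSFSWAP/siUPF1 and 72.6 ± 3.89 in siSFSWAP (SD, n = 3 each), a ratio of 1.32 without overlap (exact permutation p = 0.1, two-sided). IFRD2 had ratios of 0.854 for siNT/siUPF1 against siNT and 0.840 for siSFSWAP/siUPF1 against siSFSWAP, both with overlap.

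**Figure D5:**
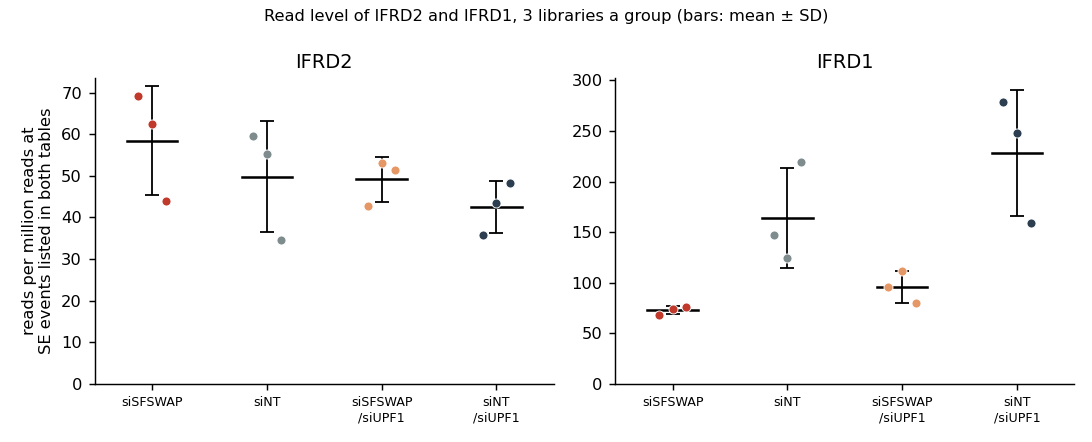
Reads of IFRD2 (left) and IFRD1 (right), in RPM over the SE events listed in both tables, for the 3 libraries of each group, with mean and SD. IFRD1 lies between 68.3 and 112 in the SFSWAP knockdown libraries and between 124 and 279 in the others; the IFRD2 groups overlap.

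The introns most like IFRD2 intron 2 over the 12 libraries, among 849 RI events with a range of at least 0.1 between group means, were in PDDC1 (Pearson r = 0.976), MCAM (0.969), PKN3 (0.968), ARAP1 (0.963) and TROAP (0.958). MCAM is a cell adhesion molecule, PKN3 a protein kinase, ARAP1 a GTPase-activating protein and TROAP a mitotic protein. MCAM was at 0.207 in siSFSWAP and 0.579 in siNT, and ARAP1 at 0.0158 in siSFSWAP and 0.232 in siNT. These correlations describe libraries that share their group and depth. No IFRD1 event that was kept in both tables had a range of 0.1 between groups, so none was matched.

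Genes related to the pair by function or place were taken from lists and are described by counts, with no test over a list. Events of 1 gene often share reads. Factors of idle and stalled ribosomes, which include SERBP1 and EEF2, had 19 RI events tested in siSFSWAP against siNT, in 11 of 20 genes. Of these, 2 were lower, in EIF6, a factor that keeps ribosomal subunits apart (-0.91, adjusted p = 0.00245), and ZNF598, a sensor of collided ribosomes (-1.36, adjusted p = 0.0187). Over all RI events 9.10% were lower, and the median log2 odds ratio was -0.04 in the list, against -0.25 over all. Their SE events were called in both directions, 21 higher and 26 lower of 119, where 7.76% of all SE events were higher and 4.21% lower, with a median of 0.42 against 0.26 over all SE events. The lower ones were in SERBP1, a protein that clamps idle ribosomes, with 19 events between -7.49 and -3.37, in GSPT1, the release factor eRF3a, with 5, and in EEF2, the elongation factor, with 2. The higher ones were in EIF6, ZNF598 and LARP1, a regulator of ribosomal protein mRNAs. In siSFSWAP/siUPF1 against siNT/siUPF1 none of 17 RI events was called in this list (adjusted over all RI events, quasi-binomial test), where 0.979% of all were higher and 2.59% lower, which leaves a count of 0 near the background. Of 124 SE events 10 were higher and 24 lower, against 4.05% higher and 3.47% lower over all, with a median of -0.28 against 0.07.

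Of mRNAs with upstream reading frames or known UPF1 targets, to which IFRD1 belongs, 24 RI events in 7 of 20 genes were tested in siSFSWAP against siNT, with 1 higher and 2 lower (median 0.04, against -0.25 over all RI events). This is near the shares over all RI events, 1.33% higher and 9.10% lower. The calls were in GAS5, a noncoding host of small nucleolar RNAs, and SRSF2, an SR protein. With UPF1 knocked down 6 were higher and 1 lower of 18, all in GAS5, against 0.979% higher and 2.59% lower over all (median 0.72 against -0.06). Their SE events had 5 higher and 15 lower of 81 in siSFSWAP against siNT, of which 12 were in GAS5 alone, where 7.76% of all SE events were higher and 4.21% lower (median -1.32 against 0.26). In the UPF1 background 1 was higher and 25 lower of 76, 23 of them in GAS5, against 4.05% higher and 3.47% lower over all (median -1.40 against 0.07). Among partners of IFRD1 in repression, HDAC3, a histone deacetylase, had the only RI call of 8 tested events in siSFSWAP against siNT (-1.54, adjusted p = 0.0113), where 9.10% of all RI events were lower. In siSFSWAP/siUPF1 against siNT/siUPF1 none of 9 RI events of that list was called (adjusted over all RI events, quasi-binomial test). Over all RI events 0.979% were higher and 2.59% lower, which leaves a count of 0 near the background.

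Beside IFRD2 on chromosome 3, 1 of 17 neighbours, NPRL2, a GATOR1 subunit that restrains mTORC1, had RI events tested. Of its 6 events 2 were lower in siSFSWAP than in siNT (-2.73 and -2.44, lowest adjusted p = 0.0149), with a list median of -1.35, where 9.10% of all RI events were lower and the median was -0.25. In the UPF1 table none of its 4 tested events was called (median -0.74, against -0.06 over all). There 2.59% of all RI events were lower and 0.979% higher, which leaves a count of 0 near the background. Of the SE events of the list 2 of 5 were higher in siSFSWAP than in siNT, both in NPRL2, against 7.76% of all. In siSFSWAP/siUPF1 against siNT/siUPF1 0 of 6 were called, where 4.05% of all SE events were higher and 3.47% lower, again near the background. Beside IFRD1 on chromosome 7 no RI event was tested. The SE events tested there numbered 1 for siSFSWAP against siNT and 2 for siSFSWAP/siUPF1 against siNT/siUPF1, without a call.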

How the data were processed

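PolyA RNA-seq of 12 samples (4 groups of 3) was used as deposited. The authors' notes name cutadapt 1.9.1 for trimming, STAR 2.7 for alignment on GRCh38.p8, and rMATS, which counted reads across junctions and inside exons or introns for every splicing event. The deposited tables hold, for each event, counts of reads of the inclusion and the skipping form and the inclusion level, a fraction computed by the authors from reads divided by the effective length of each form. The 3 libraries of a group stand in 1 cell without replicate numbers. The authors' own p-values, FDR and inclusion level differences were not used, and 0 columns of per-sample values were left unmatched. Recomputed levels matched the deposited ones within 0.001.

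Events averaging 10 or more reads a library, with 10 or more reads of each form, were fitted by quasi-binomial regression, with the dispersion moderated by limma 3.58.1 (R 4.3.3), floored at 1, and an F test. P-values were Benjamini-Hochberg adjusted over all kept events of a kind, and a call is an adjusted p of at most 0.05. Log2 odds ratios add 0.5 to each pooled count. Comparisons across tables used events with the same coordinates in both. The method was tested on simulated data. Reads per library at SE events ran from 25938092 to 40637076. Intervals are for the estimated log2 odds ratio, from a normal quantile and an SE scaled by the moderated dispersion. The samples are called biological replicates, but p-values measure only the spread between these 3 a group, with each event's dispersion drawn toward that of all kept events. Replicates of a group differed by more than sampling noise.

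Every listed event of both genes was a member. The genes most like a member were the 5 with the highest Pearson correlation over 12 libraries among events of the same kind kept in both tables with a range of at least 0.1 between group means. The members, gene lists and tests were chosen with earlier results of these data known. Exons follow the MANE transcript of GENCODE, on GRCh38, the build of the event coordinates. Filters, pseudocounts, dispersion settings, left-out libraries and, chosen after seeing the data, looser event matching and shared events for read levels were tried as alternatives. Python 3.11.15, numpy 2.4.6 and pandas 2.3.3 were used. SE events of the list of IFRD1 partners in repression are not reported here.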

Additional observations from a re-analysis of the deposited data

How the results depend on the processing

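No paired analysis was possible because the table columns carry no replicate numbers. The planned edgeR fit was not run, since the tables join the reads of 3 libraries in 1 cell and were not entered as a count table. The cause of the differences below was not tested, beyond the number of events or libraries each setting leaves.

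Calls over all RI events for siSFSWAP against siNT numbered 610, and 0 with no filter (1560 at an unadjusted p under 0.05), 0 in limma on log2 odds with a pseudocount of 0.5 (1119) or 1 (1177), and 0 with each event's own dispersion (829). For siSFSWAP/siUPF1 against siNT/siUPF1 they numbered 182, and 0 with no filter (1024), 1 in limma with either pseudocount and 0 with own dispersion (449). For siNT/siUPF1 against siNT they numbered 2, and 0 with no filter (443), 1 in limma with either pseudocount, 0 with own dispersion (156) and 4 with a dispersion trend. Those for siSFSWAP/siUPF1 against siSFSWAP numbered 5, and 3 with a mean of at least 30 reads, 0 with no filter (271), 0 in limma (139 and 149), 0 with own dispersion (70), 3 with a trend and 9 when events were matched by the intron, an alternative chosen after seeing the data. The difference between UPF1 backgrounds had 1 call, and 0 in limma (211 and 230) or with own dispersion (134).

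Calls over all SE events numbered 4052 for siSFSWAP against siNT, and 59 with no filter, 1239 and 1611 in limma and 0 with own dispersion (5627). They numbered 2558 for siSFSWAP/siUPF1 against siNT/siUPF1, and 12, 17, 276 and 0 (4212) under these settings. For siNT/siUPF1 against siNT they numbered 332, and 5, 0 (2390), 0 (2497) and 0 (1738). Those for siSFSWAP/siUPF1 against siSFSWAP numbered 21, and 0 (3267), 0 (1255), 0 (1236) and 0 (662), with 10 under a trend. The difference between backgrounds had 3, and 0 (1813), 0 (2234), 0 (2204) and 0 (929).

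With 1 library left out, RI calls ranged between 383 and 819 for siSFSWAP against siNT, 84 and 344 for siSFSWAP/siUPF1 against siNT/siUPF1, 2 and 15 for siNT/siUPF1 against siNT, 1 and 11 for siSFSWAP/siUPF1 against siSFSWAP, and 1 and 4 for the difference between backgrounds. SE calls for these comparisons ranged between 2398 and 3847, 1368 and 3104, 129 and 615, 8 and 38, and 1 and 33.

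The log2 ratio of IFRD2 reads for siSFSWAP against siNT was 0.03, and -0.80 over RI reads and -0.75 at the single event with the most reads. For siSFSWAP/siUPF1 against siNT/siUPF1 it was 0.23, and -0.61 and -0.70. For siNT/siUPF1 against siNT it was -1.04, and -0.65, -0.16 and, on events listed in both tables, -0.20. For siSFSWAP/siUPF1 against siSFSWAP it was -0.84, and -0.46, -0.11 and -0.23. The IFRD1 ratio for siNT/siUPF1 against siNT was 0.11, and 0.66 over RI reads, and for siSFSWAP/siUPF1 against siSFSWAP 0.03, and 0.85, 0.27 and 0.39. The differences in level became, as shares of reads without length, -0.33 for IFRD2 intron 2 (siSFSWAP/siUPF1 minus siNT/siUPF1), 0.157 for IFRD2 exon 7, 0.0144 for the 461-nt IFRD2 form and 0.015 and 0.014 for the 135-nt and 463-nt IFRD1 exons (siSFSWAP minus siNT), and 0.00845 for the 463-nt exon in the UPF1 table.

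The log2 odds ratios of some members changed sign, none of them called under any setting (lowest adjusted p over these 0.487). With 1 library left out, siSFSWAP against siNT gave between -0.17 and 0.96 for IFRD1 intron 7 and between -0.76 and 0.33 for intron 6. For siSFSWAP/siUPF1 against siNT/siUPF1 the range was -0.05 to 0.69 for IFRD1 intron 6, -0.70 to 0.63 for IFRD1 exon 8 (limma -0.06 and -0.21) and -0.59 to 1.21 for the 463-nt exon. For siNT/siUPF1 against siNT it was -0.32 to 0.81 for IFRD1 intron 7 and -0.74 to 0.41 for IFRD2 exon 7 (limma 0.30 and 0.25). For siSFSWAP/siUPF1 against siSFSWAP it was -0.28 to 0.63 for IFRD2 intron 2, -0.02 to 0.82 for IFRD1 intron 7, -0.27 to 0.95 for IFRD1 exon 8 (limma -0.13) and -1.18 to 0.62 for the 463-nt exon. The difference between backgrounds ran -0.43 to 0.77 for IFRD1 intron 7 (limma -0.00) and -0.34 to 3.05 for IFRD2 exon 7. For IFRD2 exon 6 it ran -2.26 to 0.39. IFRD2 exon 3 ran -0.28 to 0.57 for siSFSWAP/siUPF1 against siNT/siUPF1 and -0.31 to 0.77 for siNT/siUPF1 against siNT. Its 58-nt and 97-nt forms changed sign in the same comparisons. The 135-nt exon ran -0.26 to 0.65 for siSFSWAP/siUPF1 against siNT/siUPF1 and -0.51 to 0.37 for siSFSWAP/siUPF1 against siSFSWAP.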
